A study of Mus musculus with 44 samples.

Results

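Astrocytes are the glial cells that clear glutamate from synapses, buffer potassium and water, supply neurons with metabolites and couple to each other through connexin channels. Radial glia are the stem cells of the developing brain, and the dentate gyrus of the adult hippocampus keeps radial glia-like stem cells that share many transcripts with astrocytes. The 37 genes described here are astrocyte and radial glia genes, chosen by their symbols from a list put together with earlier results of these data in view, and all 37 were found among the 27179 genes of the count files. Because the list was selected on these libraries, and the contrast behind it is not stated, the differences below are descriptions of the listed genes and do not support the choice of the list.

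RNA sequencing was performed on dorsal hippocampus of wild-type (WT) mice and of littermates homozygous for the ΔARID allele of Kdm5b (Kdm5bDARID/DARID, hereafter mutant), all young adults on a mixed C57BL/6J and 129S2/Sv F2 background. KDM5B removes the methyl groups of trimethylated lysine 4 of histone H3, a mark of active promoters, and the constitutive allele lacks early exons, so that the protein loses the ARID domain and part of JmjN. Mice were either naive in their home cage (0 h) or were killed 1 h or 3 h after contextual fear conditioning, in which a context is paired with foot shocks. Each of the 6 groups held 6 mice, 3 labelled male and 3 labelled female, and 8 further libraries from a separate cohort were not analysed here. The question behind the comparisons is whether glial transcripts differ between the genotypes and whether they move in the hours of memory consolidation.

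The 36 libraries held between 40274435 and 107000233 counts in genes, and none of 90 pairs within groups was identical. The labels of 2 libraries did not match the transcripts. The library labelled WT 1 h male 1 had 51186 Xist counts and the library labelled mutant 3 h female 2 had 36, whereas the other libraries labelled male had 18 to 155 and the other libraries labelled female 41026 to 82070. These libraries also stood apart from their groups in the activity-regulated genes Fos and Egr1. Levels are given as CPM, counts scaled to the size of the library. Fos was at 11.7 CPM in the first against 19.2 to 34.4 in the rest of its group, and at 43.9 CPM in the second against 6.42 to 11.6. Egr1 was at 106.0 against 185.6 to 279.0 CPM, and at 293.4 against 92.7 to 178.0 CPM. Fold changes that use these libraries are also given without them where that turned their direction, changed a call or moved them by over 1.5 times. Kdm5b itself averaged 86.5 ± 2.84 CPM (SD, n = 6) in naive WT and 80.5 ± 3.96 CPM in naive mutant mice. It was at 79.6 CPM in WT 1 h male 1, against 81.5 to 97.1 CPM in the other WT libraries. In mutant 3 h female 2 it was at 93.5 CPM, against 75.6 to 90.6 CPM in the other mutant libraries. Whether the genotype and time labels of these libraries hold was not tested, and the main counts keep both as labelled. A count over the whole gene does not test for the deleted exons.

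Every listed gene was well covered, and the lowest count in any library was 253, for Hes5. Levels are compared between genes as CPM per kilobase of merged exon (CPM per kb), taken over all 36 libraries. The marker genes of astrocytes were all present: the water channel Aqp4 had a median of 27.5 CPM per kb, connexin 43 (Gja1) 19.7 CPM per kb, and the folate enzyme Aldh1l1 8.05 CPM per kb. Tissue was not sorted, so fewer cells of a type and less RNA per cell cannot be told apart in any value below.

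Among the transporters that remove glutamate and GABA, the glutamate transporter GLT-1 (Slc1a2) had a median of 273 CPM per kb, the glutamate transporter GLAST (Slc1a3) 76.7 CPM per kb and the GABA transporter GAT-3 (Slc6a11) 28.6 CPM per kb. The connexins Gjb6 and Gja1, which form gap junctions between astrocytes, were close to each other at 20.8 and 19.7 CPM per kb, with ranges that overlapped. Of the water, ion and junction proteins, Mlc1 (62.5 CPM per kb) and its partner Hepacam (33.7 CPM per kb) lay above Aqp4. The bicarbonate cotransporter Slc4a4 was at 21.8 CPM per kb and the claudin Cldn10 at 11.3 CPM per kb. Among the receptors Gpr37l1, an orphan receptor of astrocytes, was at 89.0 CPM per kb, the sphingosine receptor S1pr1 at 40.7, the neurotensin receptor Ntsr2 at 38.5, the growth factor receptor Fgfr3 at 17.6, tissue factor (F3) at 14.4 and the endothelin receptor Ednrb at 14.3 CPM per kb.

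The intermediate filament Gfap had a median of 116 CPM per kb, the calcium-binding proteins S100b and S100a16 56.9 and 31.8 CPM per kb, and the fatty acid-binding protein Fabp7, also made by radial glia, 23.3 CPM per kb. The metabolic genes ran from aldolase C (Aldoc, 205 CPM per kb) and Ndrg2 (190 CPM per kb) through the glycogen regulator Ppp1r3c (17.99 CPM per kb) to Aldh1l1. Apolipoprotein E (Apoe) was the most abundant of all 37 genes per length, at 745 CPM per kb, and clusterin (Clu, 271 CPM per kb) overlapped in range with Slc1a2. Lecithin cholesterol acyltransferase (Lcat) was at 20.8 CPM per kb, and the matrix protein tenascin C (Tnc) at 1.39 CPM per kb.

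Transcription regulators occupied the lower part of the order. The inhibitors of DNA binding Id3 and Id4 had medians of 16.1 and 13.2 CPM per kb, and the gliogenic factor Sox9 8.73 CPM per kb. The Notch target Hes5 was at 5.99, the stem cell factor Nr2e1 (Tlx) at 4.23, Sox21 at 4.20, Prdm16 at 2.03, the nuclear receptor Rorb at 1.89 and the hedgehog effector Gli3, the lowest of the 37, at 1.07 CPM per kb. The plot of levels per length shows that the spread over libraries is small beside the differences between genes.

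**Figure D1:**
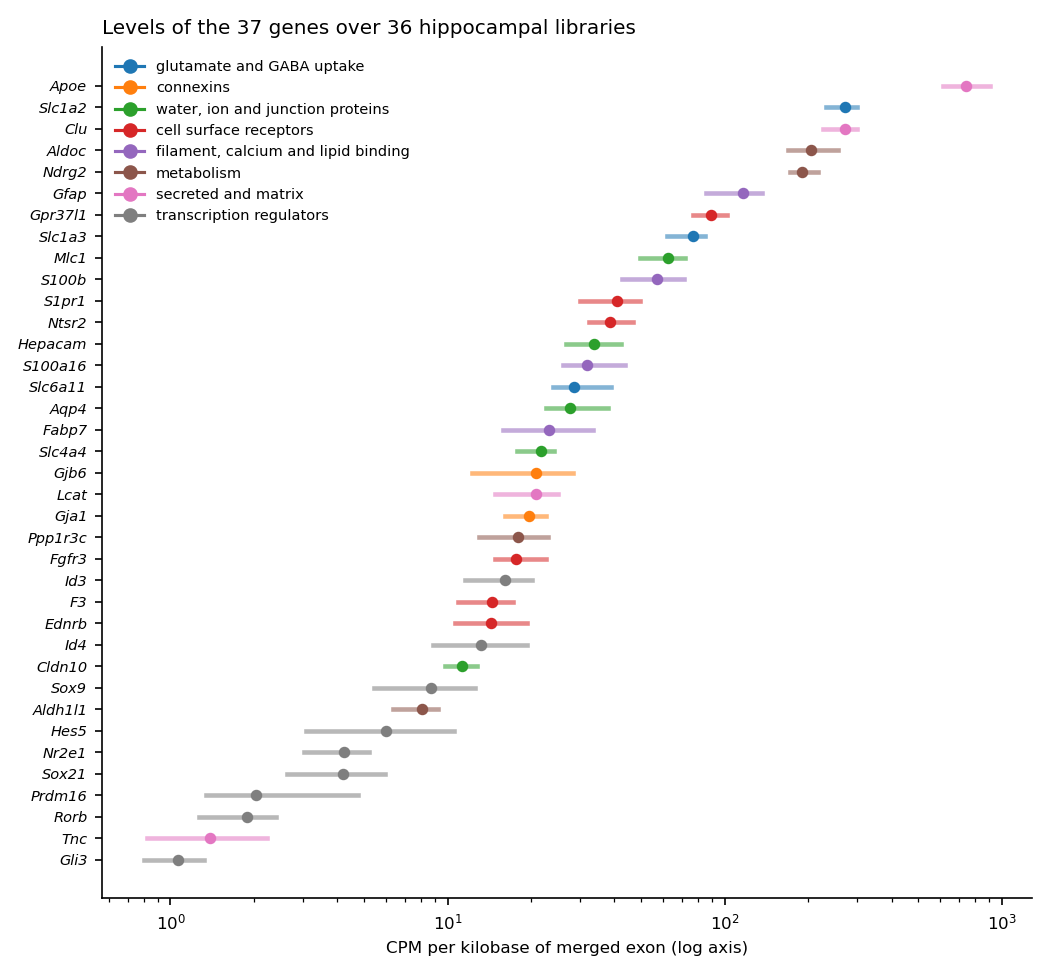
Level of each of the 37 genes in CPM per kilobase of merged exon (log axis); points are medians and bars run from the lowest to the highest of 36 libraries, coloured by role. Apoe, at 745 CPM per kb, lies at the top and Gli3, at 1.07 CPM per kb, at the bottom.

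Within a group, the genes differed widely in how much mice varied. The coefficient of variation (SD as a percent of the mean within a group, taken as the median over 6 groups) was 5.07% for Slc1a3, 5.36% for Clu and 5.90% for Gpr37l1. By contrast it was 29.9% for Prdm16, 27.2% for Hes5, 18.4% for Fabp7 and 17.9% for Gjb6. The median over the 37 genes was 9.52%, against 6.92% over the 10652 genes with a median level at least as high as that of Hes5, the lowest of the 37 in CPM. The comparison of these medians is given without a test.

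In naive mice, the differences between genotypes were small and pointed mostly to higher levels in mutants. Fold changes were above 0 for 32 of 37 genes, with a median of 0.08 on the log2 scale against -0.00 over the 17336 genes tested, of which 49.3% were above 0. All 9 transcription regulators, all 3 transporters, both connexins and all 5 water, ion and junction proteins were on the positive side. These signs were not firm in every gene: Id3 (0.00) turned negative without any 1 of 6 libraries, down to -0.08, Hes5 without WT female 2, mutant male 1 or mutant female 3, and Cldn10 without mutant female 1. Of the 37 genes, 13 changed sign when single libraries were left out. All 37 were measured in the same mice, so the sign counts here and below are not counts of separate observations. The log2 difference of a library from the mean of all libraries was also averaged over the 37 genes. It ran from -0.116 to 0.055 in naive WT (median -0.015, SD 0.071) and from -0.050 to 0.144 in naive mutants (median 0.085, SD 0.081). These ranges overlapped, as did those of the genotypes at 1 h and at 3 h. None of the 37 passed edgeR's quasi-likelihood test at an adjusted p of 0.05, where 0% of all genes did. At an unadjusted p of 0.05, 4 were higher (3.32% of all genes) and 0 lower (2.83% of all genes), and DESeq2 called 1, Id4 (0.0808% of all genes).

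Id4, an inhibitor of basic helix-loop-helix factors that keeps hippocampal stem cells quiescent, had the largest difference of these. In naive WT mice its level had a minimum of 34.1, a median of 42.3 and a maximum of 46.4 CPM, and in naive mutants 46.7, 61.9 and 71.9 CPM. The groups did not overlap: all 6 mutant libraries lay above all 6 WT libraries. The nearest libraries, at 46.4 and 46.7 CPM, differed by less than the spread within either group. The share of all genes whose groups separate in this way was not computed, for Id4 or for the genes below. On the log2 scale the difference was 0.55 ± 0.11 (SE; edgeR adjusted p = 0.707, DESeq2 adjusted p = 0.00331).

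Ednrb, the endothelin B receptor of astrocytes, and Gja1 followed. Ednrb ran from 54.1 through a median of 57.6 to 71.2 CPM in naive WT and from 60.2 through 69.7 to 82.3 CPM in naive mutant mice. Only the library WT 0 h male 1, at 71.2 CPM, reached into the mutant range, and the log2 fold change was 0.25 ± 0.07 (edgeR adjusted p = 0.71). Gja1 had a minimum of 173, a median of 195 and a maximum of 202 CPM in WT and 205, 211 and 220 CPM in mutants. Here too the groups were separate, at a log2 fold change of 0.15 ± 0.04 (edgeR adjusted p = 0.713).

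Markers of neighbouring tissue also differed between the naive groups. The summed level of 6 striatal markers had a minimum of 25.9, a median of 32.5 and a maximum of 36.01 CPM in naive WT and 33.7, 44.1 and 70.4 CPM in naive mutants, and the medians for 8 choroid plexus markers were 2123 and 195 CPM. The striatal sum was above every naive WT library in 3 mutants (males 1 and 3 and female 2), and these had the highest Id4 levels, 64.6, 70.8 and 71.9 CPM. Without these 3 libraries, a setting chosen after seeing the data, 26 of 37 fold changes were above 0 (49.1% of 17772 genes) with a median of 0.06, and edgeR again called none, against 0.0169% of all genes. At an unadjusted p of 0.05, 3 were then higher (2.87% of all genes) and 1 lower (3.38% of all genes), Prdm16, whose log2 fold change went from 0.17 to -0.43. Id3, Hes5, Mlc1, Slc4a4, Slc6a11 and S100a16 turned to the negative side as well, and Tnc to the positive side. The log2 fold change was then 0.35 for Id4, 0.15 for Ednrb and 0.16 for Gja1. The other mutants, at 46.7 to 59.1 CPM of Id4, still lay above all naive WT libraries.

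The other 2 marker genes of astrocytes were less far apart. Aqp4 had a log2 fold change of 0.11 ± 0.11 in naive mice (median 170 CPM in WT, 187 CPM in mutants) and Aldh1l1 of -0.01 ± 0.05 (medians 35.9 and 36.4 CPM), and in both genes the groups overlapped. The value of Aldh1l1 turned positive, up to 0.02, without WT male 1, WT female 3 or mutant female 1. At 1 and 3 h the log2 fold changes were 0.20 ± 0.10 and 0.11 ± 0.06 for Aqp4, 0.09 ± 0.06 and 0.15 ± 0.07 for Gja1, and 0.07 ± 0.08 and -0.01 ± 0.06 for Aldh1l1. Without the mismatched libraries Aldh1l1 was at 0.15 and -0.02, and its 3 h value turned positive, up to 0.02, without WT male 2, mutant male 2 or mutant female 3.

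At 1 h 20 of 37 genes were above 0, with a median log2 fold change of 0.01 (49.0% of 17261 genes above 0, median -0.00), and without the mismatched library 24, with a median of 0.04. edgeR called none of the genes, as it called 0% of all genes. Unadjusted p-values under 0.05 were found for 3 higher genes (4.33% of all genes) and 2 lower genes (4.28% of all genes), and DESeq2 called 1, again Id4 (0.643% of all genes). Id4 had a minimum of 45.1, a median of 48.4 and a maximum of 55.7 CPM in WT and 53.5, 62.9 and 66.6 CPM in mutants. The 55.7 CPM belonged to WT 1 h male 1, one of the libraries whose label did not match, and the other WT libraries stayed below every mutant library. With that library the log2 fold change was 0.31 ± 0.07 (edgeR adjusted p = 0.212), and without it 0.36 with an adjusted p of 0.0254, where edgeR called 0.236% of 17375 genes.

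Ednrb again had the higher median in mutants at 1 h, where 3 of 6 mutant libraries were above every WT library. It ran from 63.5 through 66.9 to 73.5 CPM against 45.4, 58.7 and 66.8 CPM in WT (log2 fold change 0.24 ± 0.08, edgeR adjusted p = 0.402). Prdm16, a zinc finger regulator of radial glia, differed in the other direction, with 12.5, 13.8 and 17.4 CPM in mutants against 14.0, 19.9 and 26.1 CPM in WT. Its log2 fold change was -0.47 ± 0.14 (edgeR adjusted p = 0.356), and without the mismatched library -0.56 with an adjusted p of 0.0777. Sox9 was lower as well in mutants, at 22.4, 29.8 and 35.1 CPM against 31.8, 37.1 and 47.5 CPM (log2 fold change -0.33 ± 0.11, edgeR adjusted p = 0.429). In both genes the ranges of the genotypes overlapped.

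At 3 h, 27 of 37 genes had fold changes above 0 and the median was 0.06 on the log2 scale (50.2% of 17394 genes above 0, median 0.00). None was called by edgeR (0.0115% of all genes were) or by DESeq2 (0.27% of all genes). The unadjusted p was under 0.05 for 7 higher genes (3.28% of all genes) and for 0 lower genes (3.09% of all genes). The 7 were Gfap, Ednrb, Id4, Tnc, F3, Gja1 and Rorb. Without the mismatched library 5 were higher (4.4% of all genes) and 1, Slc6a11, lower (3.65% of all genes), and Gja1 (0.12) and Rorb (0.17) were no longer among them.

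Gfap, the filament protein that astrocytes make more of when reactive, had a minimum of 360, a median of 459.3 and a maximum of 479.5 CPM in WT and 502.6, 514 and 548 CPM in mutants at 3 h. Tnc, a matrix protein of stem cell niches, had 6.40, 8.11 and 8.53 CPM in WT and 8.54, 9.66 and 12.6 CPM in mutants. Both genes were without overlap between the groups, although for Tnc the nearest libraries differed by less than the spread within either group. Their log2 fold changes were 0.25 ± 0.07 for Gfap (edgeR adjusted p = 0.579) and 0.37 ± 0.11 for Tnc (edgeR adjusted p = 0.667). Without the library labelled mutant 3 h female 2 they were 0.26 and 0.37.

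Id4 at 3 h ran from 34.2 through 44.9 to 50.6 CPM in WT and from 46.2 through 62.4 to 74.7 CPM in mutants, and 5 of 6 mutant libraries lay above every WT library. Ednrb ran from 48.6 through 51.8 to 59.9 CPM in WT and from 54.1 through 63.4 to 78.5 CPM in mutants, again with 5 of 6 above. The mismatched library was the highest in both genes. Log2 fold changes were 0.45 ± 0.12 for Id4 and 0.29 ± 0.08 for Ednrb with it (edgeR adjusted p = 0.629 and 0.582), and 0.37 and 0.21 without it.

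The 3 genotype comparisons share no libraries, so their values can be set side by side. Fold changes were above 0 at all 3 times for 14 of 37 genes, and below 0 at all 3 times for 0, where 19.2% and 20.3% of 17032 genes were. Without the mismatched libraries there were 17 and 0 (20.4% and 20.8% of 17099 genes). The 14 were the connexins Gja1 and Gjb6, the receptors Ednrb and F3, the surface proteins Aqp4, Hepacam and Slc4a4, the regulators Id4, Rorb and Gli3, and Gfap, Aldoc, Ppp1r3c and Lcat. The glutamate transporters were not among them: Slc1a2 had log2 fold changes of 0.09, -0.04 and 0.01 at 0, 1 and 3 h, and Slc1a3 of 0.04, -0.03 and 0.08. Without the mismatched libraries Slc1a2 was at -0.02 and 0.04 at 1 and 3 h, and its 3 h value turned negative when WT male 1, mutant male 1 or mutant female 3 was left out (down to -0.02). Gpr37l1 lies on chromosome 1 (GRCm38), 0.527 Mb from Kdm5b, the nearest of the 37 genes to the mutated locus, and its log2 fold changes were 0.05 ± 0.06, -0.03 ± 0.05 and -0.05 ± 0.05. The 1 h value was 0.01 without the mismatched library.

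**Figure D2:**
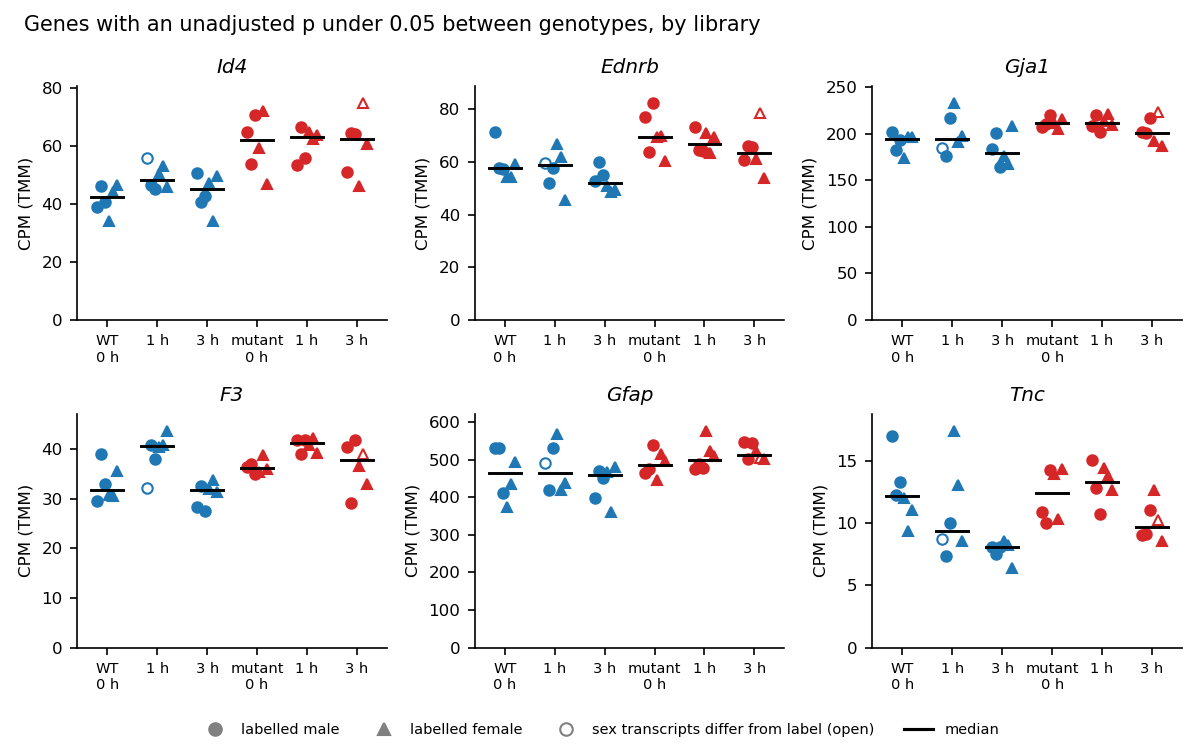
CPM of Id4, Ednrb, Gja1, F3, Gfap and Tnc in each library, by genotype and hours after conditioning (blue WT, red mutant; circles labelled male, triangles labelled female; open symbols, the libraries whose sex transcripts differ from the label; bars, medians). The medians of Id4 and Ednrb are higher in mutants at each time. The ranges of Tnc at 3 h do not overlap, though the nearest libraries are at 8.53 CPM (WT) and 8.54 CPM (mutant).

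The promoters of Id4 and Ednrb are shown because both genes had an unadjusted p under 0.05 between genotypes at all 3 times, and those of Gjb6 and Rorb because they were the listed genes that DESeq2 called in mutants from 0 to 3 h. In naive mice Ednrb had an unadjusted edgeR p of 0.113 without the 3 mutants of high striatal sum. Promoter windows of 300 bases (250 before the start and 50 after it; RefSeq, GRCm38.p6) were at hand for 33 of the 37 genes, not for Clu, Aqp4, Sox9 and S1pr1. Capitals mark CG dinucleotides, which are dense at the promoters where trimethylated lysine 4 is commonly found. The Id4 window (chr13:48260866-48261165, plus strand) holds 39 CG, the Ednrb window (chr14:103843652-103843951, minus strand) 15, the Gjb6 window (chr14:57133562-57133861, minus strand) 6 and the Rorb window (chr19:19111147-19111446, minus strand) 20. Rorb has another window (chr19:19001068-19001367, minus strand), with 5 CG, which is not shown. The 44 windows of the listed genes had a median of 10.5 CG, from 1 to 50, and all 32851 windows a median of 7.
Id4: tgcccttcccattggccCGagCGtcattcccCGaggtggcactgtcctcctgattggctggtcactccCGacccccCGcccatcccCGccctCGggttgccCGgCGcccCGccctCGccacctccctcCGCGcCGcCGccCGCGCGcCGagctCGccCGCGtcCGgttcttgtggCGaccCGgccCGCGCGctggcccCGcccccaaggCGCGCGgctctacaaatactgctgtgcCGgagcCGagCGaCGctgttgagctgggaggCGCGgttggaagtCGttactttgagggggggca
Ednrb: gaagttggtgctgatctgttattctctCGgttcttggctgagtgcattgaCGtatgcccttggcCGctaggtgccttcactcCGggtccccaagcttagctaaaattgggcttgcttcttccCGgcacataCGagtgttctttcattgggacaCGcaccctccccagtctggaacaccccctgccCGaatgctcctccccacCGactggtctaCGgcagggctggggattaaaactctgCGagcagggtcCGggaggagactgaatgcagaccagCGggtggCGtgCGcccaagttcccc
Gjb6: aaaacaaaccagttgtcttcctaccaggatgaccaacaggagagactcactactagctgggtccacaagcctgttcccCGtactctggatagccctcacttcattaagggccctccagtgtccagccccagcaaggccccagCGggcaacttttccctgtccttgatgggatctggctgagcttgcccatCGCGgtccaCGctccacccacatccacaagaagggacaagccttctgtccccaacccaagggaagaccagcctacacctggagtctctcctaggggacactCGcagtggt
Rorb: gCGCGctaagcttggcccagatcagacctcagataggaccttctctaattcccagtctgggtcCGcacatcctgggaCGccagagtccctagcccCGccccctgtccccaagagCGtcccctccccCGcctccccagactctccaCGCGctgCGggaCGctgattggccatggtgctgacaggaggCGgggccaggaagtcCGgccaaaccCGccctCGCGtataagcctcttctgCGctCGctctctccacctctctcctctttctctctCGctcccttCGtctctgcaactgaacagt

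The time course was read in each genotype on its own. From 0 to 1 h, WT mice had 23 of 37 fold changes above 0 (47.9% of 17319 genes), with a median of 0.04 on the log2 scale. Without the mismatched library 22 were above 0 (49.1% of 17439 genes), with a median of 0.02. edgeR called none (0% of all genes) and DESeq2 none (0.0462% of all genes). At an unadjusted p of 0.05, 5 genes were higher at 1 h (2.92% of all genes), F3, Id4, S1pr1, Ppp1r3c and Nr2e1, and 1 was lower (2.44% of all genes), Hes5. In mutants, 20 of 37 were above 0 (47.2% of 17282 genes), with a median of 0.00. edgeR called none of the 37 while it called 0.312% of all genes. Unadjusted p-values were under 0.05 for 3 higher genes (6.23% of all genes), F3, Ppp1r3c and Gjb6, and 3 lower genes (4.84% of all genes), Prdm16, Sox9 and Hes5. DESeq2 called 3 of these, F3, Sox9 and Prdm16 (2.14% of all genes).

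F3, the cell surface receptor that starts blood clotting, went from 29.6, 31.8 and 39.0 CPM (lowest, median and highest) in naive WT mice to 32.1, 40.6 and 43.7 CPM at 1 h, and in mutants from 34.9, 36.2 and 38.8 to 39.0, 41.4 and 42.2 CPM. All 6 mutant libraries at 1 h lay above all naive ones. Log2 fold changes were 0.24 ± 0.08 in WT (edgeR adjusted p = 0.922) and 0.16 ± 0.04 in mutants (edgeR adjusted p = 0.114, DESeq2 adjusted p = 0.013). At 3 h WT was back at 27.5, 31.7 and 33.8 CPM, and mutants were at 29.2, 37.8 and 41.8 CPM.

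Hes5, the effector of Notch signalling, was lower at 1 h in both genotypes. Naive WT mice had 5.78, 9.56 and 12.2 CPM and WT mice at 1 h 4.36, 5.66 and 9.50 CPM. Naive mutants had 4.45, 10.6 and 14.3 CPM and mutants at 1 h 4.21, 5.89 and 7.93 CPM. The groups overlapped, and the highest WT value at 1 h was in the mismatched library. The log2 fold changes were -0.58 ± 0.19 in WT, -0.73 without that library, and -0.72 ± 0.29 in mutants (edgeR adjusted p = 0.922, 0.317 and 0.375). At 3 h the medians were 9.02 CPM in WT and 9.68 CPM in mutants.

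Prdm16 and Sox9 were lower at 1 h in mutants, with log2 fold changes of -0.79 ± 0.22 and -0.53 ± 0.15 (edgeR adjusted p = 0.208 and 0.22; DESeq2 0.0487 and 0.0123). In WT they were -0.14 ± 0.15 and -0.02 ± 0.10, and -0.06 and -0.09 without the mismatched library. The naive level of Prdm16 in mutants was 35.5, 36.3 and 28.1 CPM in the 3 libraries of high striatal sum (males 1 and 3 and female 2) and 15.0, 16.1 and 17.0 CPM in the other 3, against 12.5 to 17.4 CPM at 1 h. Without those 3 libraries its log2 fold change in mutants was -0.20 ± 0.11 (edgeR adjusted p = 0.529), and that of Sox9 -0.42 ± 0.17 (edgeR adjusted p = 0.432). In that setting 5 of the 37 genes were higher (6.14% of all genes) and 1, Sox9, lower (4.44% of all genes) at an unadjusted p of 0.05. The WT value of Sox9 turned positive, up to 0.04, when WT 0 h female 3, WT 1 h male 3 or WT 1 h female 1 was left out. The difference between the genotypes in the 1 h response, tested as an interaction over 24 libraries, was -0.65 ± 0.28 for Prdm16 and -0.51 ± 0.19 for Sox9 (edgeR adjusted p = 0.999 for both). Without the 3 naive mutants of high striatal sum it was -0.06 ± 0.21 for Prdm16 and -0.46 ± 0.20 for Sox9. None of the 37 genes was called in it (0% of all genes), 2 had an unadjusted p under 0.05 against 3.78% of all genes, and DESeq2 called none (0% of all genes). In the 3 h response none was called by edgeR (0% of all genes) or DESeq2 (0% of all genes), and 1 gene, Tnc, had an unadjusted p under 0.05 against 1.52% of all genes, with a difference of 0.39 ± 0.18. Without the mismatched libraries the count at 3 h was 0, and that at 1 h was 3, Prdm16, Sox9 and S1pr1, all with a lower difference in mutants (1.85% of all genes).

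From 1 to 3 h more of the listed genes had fold changes below 0 than above it. In WT mice 26 of 37 fold changes were below 0 (49.3% of 17388 genes), with a median of -0.07 on the log2 scale. edgeR called none (0% of all genes). The unadjusted p was under 0.05 for 12 lower genes (4.24% of all genes) and 1 higher gene (3.17% of all genes), Hes5. DESeq2 called 7: S100a16, Sox21, F3, S1pr1, Nr2e1, Rorb and Ppp1r3c (0.374% of all genes). Without the mismatched library 25 were below 0, 11 were lower (4.75% of all genes) and 2 higher (3.65% of all genes) at an unadjusted p of 0.05, and edgeR called 1, F3, at a log2 fold change of -0.39 and an adjusted p of 0.0415, among 0.0171% of 17520 genes called.

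In mutants 23 of 37 fold changes were below 0 from 1 to 3 h (49.3% of 17247 genes), with a median of -0.05. edgeR called none (0% of all genes), and none without the mismatched library, where it called 0.104% of all genes. The unadjusted p was under 0.05 for 8 lower genes (3.75% of all genes) and 3 higher genes (4.3% of all genes), Sox9, Hes5 and Prdm16, and DESeq2 called 2, Rorb and Fabp7 (0.423% of all genes). Without that library 21 were below 0, and 13 were lower (4.7% of all genes) and 3 higher (4.29% of all genes) at an unadjusted p of 0.05. The WT and mutant comparisons share no libraries: 19 of 37 genes were below 0 in both (27.5% of 17122 genes) and 7 above 0 in both (28.9%). With the mismatched libraries left out these were 18 (28.2% of 17227 genes) and 9 (30.6%).

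Rorb, a nuclear receptor with roles in cortical patterning and circadian rhythm, ran from 19.1 through 21.7 to 26.5 CPM at 1 h and from 14.1 through 15.97 to 20.3 CPM at 3 h in WT mice. In mutants it ran from 20.8 through 23.4 to 26.6 CPM and then from 15.4 through 17.6 to 22.5 CPM. In each genotype 5 of 6 libraries at 3 h were below every library at 1 h. The log2 fold changes were -0.44 ± 0.08 in WT and -0.33 ± 0.07 in mutants (edgeR adjusted p = 0.272 and 0.27, DESeq2 0.00213 and 0.00289).

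S100a16, a calcium-binding protein, had 51.1, 55.7 and 60.1 CPM at 1 h and 44.3, 45.8 and 49.9 CPM at 3 h in WT mice, with no overlap. In mutants it had 48.4, 54.3 and 58.4 and then 42.1, 45.6 and 56.4 CPM, where the 56.4 CPM was in the mismatched library. Log2 fold changes were -0.25 ± 0.04 in WT and -0.19 ± 0.07 in mutants, and -0.24 in mutants without that library (edgeR adjusted p = 0.25, 0.527 and 0.168). Sox21, a transcription factor of neural progenitors, went from 15.3, 16.8 and 20.5 to 10.01, 13.0 and 15.8 CPM in WT and from 14.6, 17.1 and 20.3 to 10.4, 12.7 and 19.1 CPM in mutants. Its 19.1 CPM was in the same library, and the log2 fold changes were -0.44 ± 0.08 in WT, -0.37 ± 0.12 in mutants and -0.49 in mutants without it.

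Ppp1r3c, which targets a phosphatase to glycogen, had medians in WT of 54.7 CPM (1 h) and 41.0 CPM (3 h), and in mutants of 54.6 and 47.6 CPM, with log2 fold changes of -0.36 ± 0.08 and -0.26 ± 0.07. Fabp7 had medians of 29.3 and 26.8 CPM in WT and 34.8 and 24.1 CPM in mutants, with log2 fold changes of -0.21 ± 0.08 and -0.46 ± 0.12. S1pr1 had 119, 137 and 150 CPM at 1 h and 91.9, 111 and 129 CPM at 3 h in WT mice, and 120, 135 and 138 then 105, 121 and 141 CPM in mutants. Its log2 fold changes were -0.28 ± 0.05 in WT and -0.12 ± 0.06 in mutants (edgeR adjusted p = 0.272 and 0.659, DESeq2 0.00218 and 0.618). Nr2e1, which maintains adult neural stem cells, had 15.2, 17.8 and 19.4 CPM at 1 h and 11.4, 13.2 and 16.1 CPM at 3 h in WT mice, with log2 fold changes of -0.38 ± 0.07 in WT and -0.24 ± 0.08 in mutants (edgeR adjusted p = 0.272 and 0.523, DESeq2 0.00213 and 0.265). The ranges of all 4 genes overlapped between the times in both genotypes. In mutants the 3 h maxima of S1pr1 (141 CPM) and Nr2e1 (18.8 CPM) were in the mismatched library. The other mutant libraries at 3 h had 12.1 to 15.0 CPM of Nr2e1, below the 1 h minimum of 15.5 CPM.

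From 0 to 3 h, WT mice had 22 of 37 fold changes below 0 (51.4% of 17438 genes; median -0.05). edgeR called none (0% of all genes), 8 were lower (3.66% of all genes) and 1 higher (4.57% of all genes) at an unadjusted p of 0.05, and DESeq2 called 2, Tnc and S100a16 (0.424% of all genes). Tnc went from 9.37, 12.1 and 17.0 CPM to 6.40, 8.11 and 8.53 CPM without overlap, at a log2 fold change of -0.67 ± 0.11 (edgeR adjusted p = 0.215, and 0.0467 without WT 0 h female 2). The share of all genes called without that library is not given here. In mutants 26 of 37 were below 0 (52.1% of 17285 genes; median -0.05). edgeR called none (0% of all genes), 5 were lower (3.68% of all genes) and 1 higher (4.89% of all genes) at an unadjusted p of 0.05, and DESeq2 called 2, Gjb6 and Rorb (0.839% of all genes). Without the mismatched library 11 were lower (5.11% of all genes) and 2 higher (6.13% of all genes). Without the 3 naive mutants of high striatal sum 4 were lower (3.48% of all genes) and 2 higher (4.18% of all genes), with a median of -0.03.

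Gjb6 (connexin 30) was above its naive level 3 h after conditioning, at an unadjusted p of 0.05 in each genotype. Its levels in WT were 32.7, 38.3 and 62.1 CPM at 0 h, 37.9, 53.7 and 72.7 CPM at 1 h and 43.3, 59.7 and 72.5 CPM at 3 h. In mutants they were 36.7, 41.9 and 58.2 CPM, then 46.5, 58.9 and 69.1 CPM, then 55.4, 61.7 and 75.8 CPM. The medians at 1 and 3 h lay above the naive medians in each genotype, and the ranges overlapped. From 0 to 3 h the log2 fold changes were 0.48 ± 0.16 in WT and 0.52 ± 0.12 in mutants (edgeR adjusted p = 0.496 and 0.311, DESeq2 0.0891 and 0.00809). The other connexin, Gja1, had -0.06 ± 0.06 and -0.06 ± 0.05, and -0.09 in mutants without the mismatched library.

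**Figure D3:**
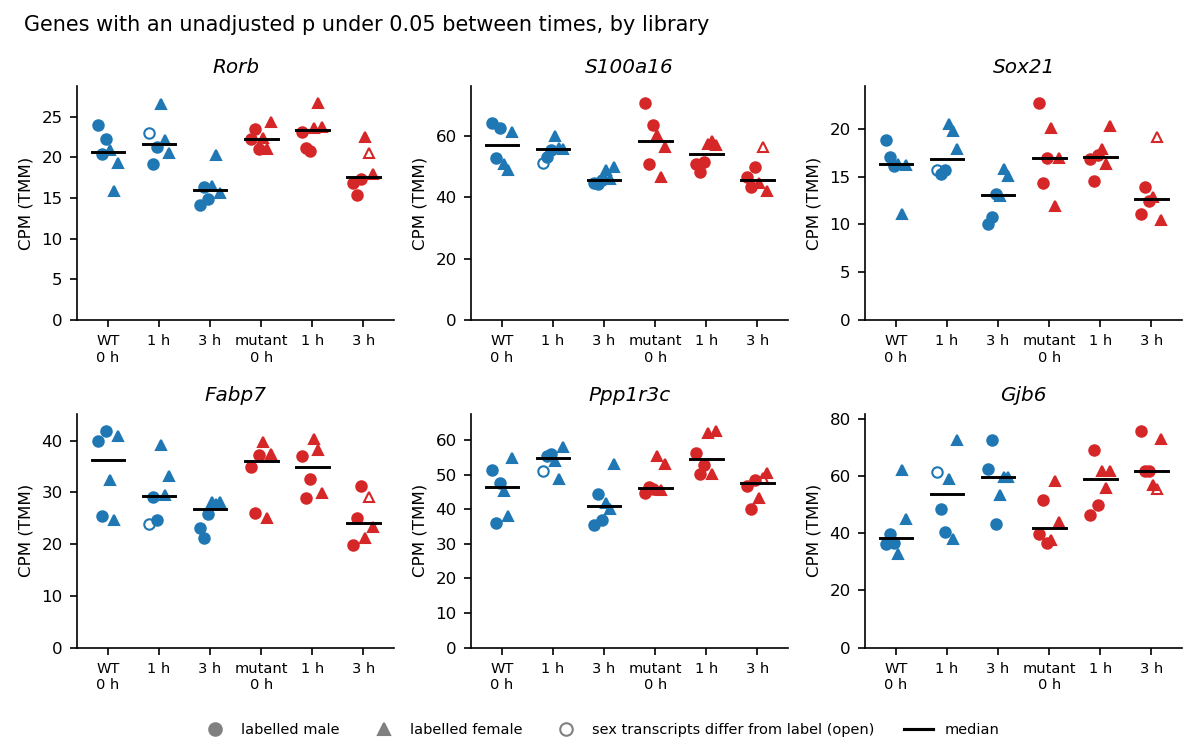
CPM of Rorb, S100a16, Sox21, Fabp7, Ppp1r3c and Gjb6 in each library, by genotype and hours after conditioning, with symbols as in the plot of genotype differences. In WT and in mutants the 3 h medians of the first 5 genes lie below their 1 h medians, and the median of Gjb6 is higher at 1 h and 3 h than in naive mice.

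**Figure D4:**
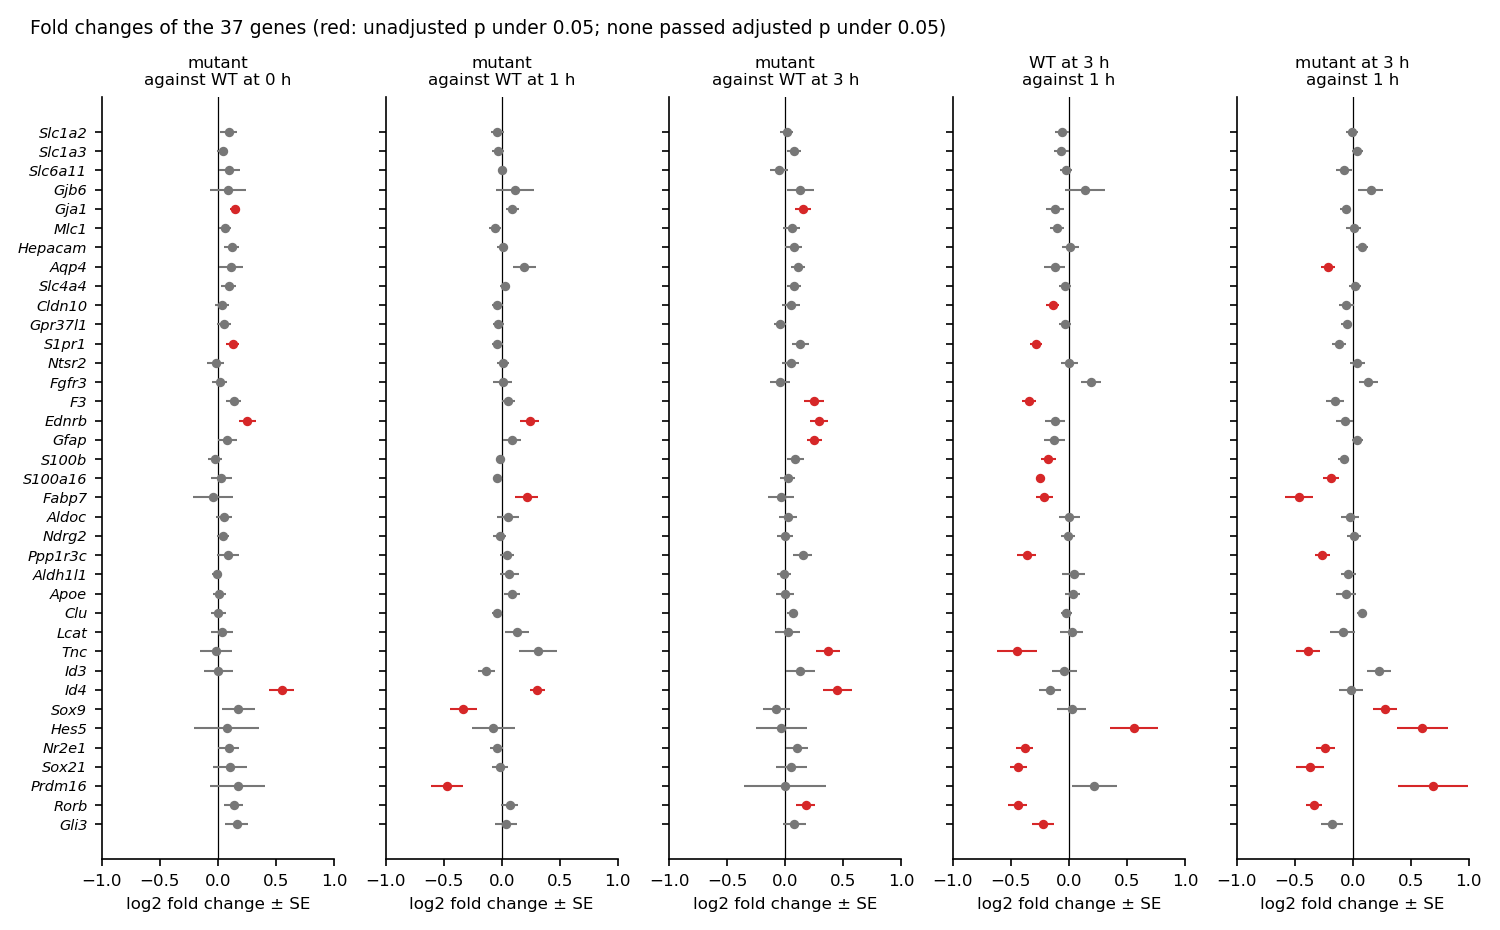
Log2 fold changes with standard errors (edgeR) of the 37 genes, ordered by role, for mutant against WT at 0, 1 and 3 h and for 3 h against 1 h in each genotype; red marks an unadjusted p under 0.05. Id4 and Ednrb lie to the right in all 3 genotype panels, and Rorb, Sox21, Tnc and S100a16 to the left in both time panels.

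Naive mice were not alike in these genes. Gjb6 stood at 62.1 CPM in WT 0 h female 2, 51.5 CPM in mutant 0 h male 2 and 58.2 CPM in mutant 0 h female 2, while the other 9 naive libraries ran from 32.7 to 45.1 CPM. The same libraries had the 3 lowest naive levels of Hes5, from 4.45 to 5.78 CPM against 8.76 to 14.3 CPM in the other 9, and of Sox21, from 11.1 to 14.4 CPM against 16.1 to 22.7 CPM. Plin4, a lipid droplet gene picked after the values had been seen, was at 24.3, 10.3 and 24.1 CPM in them against 1.74 to 5.66 CPM in the others. Tsc22d3, a glucocorticoid-induced gene picked in the same way, was at 93.1, 79.2 and 89.7 CPM against 35.98 to 65.0 CPM. At 1 h Plin4 was between 2.59 and 22.5 CPM in WT and between 3.43 and 9.73 CPM in mutants. At 3 h it was between 10.1 and 37.7 CPM in WT and between 5.36 and 35.2 CPM in mutants. The part of these mice in the time comparisons was not tested beyond leaving each one out.

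Female and male mice were compared over all 36 libraries, with groups held fixed. Of the 37 genes, 26 were higher in females as labelled (51.2% of 18186 genes), with a median log2 fold change of 0.02. edgeR called none (0.0825% of all genes), DESeq2 called none (0.0715% of all genes), and 1 gene, S1pr1, had an unadjusted p under 0.05 against 5.08% of all genes. Its log2 fold change was 0.08 ± 0.04, and 0.06 without the mismatched libraries, where 2 genes were higher (3.26% of all genes) and 2 lower (4.52%) at an unadjusted p of 0.05.

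**Figure D5:**
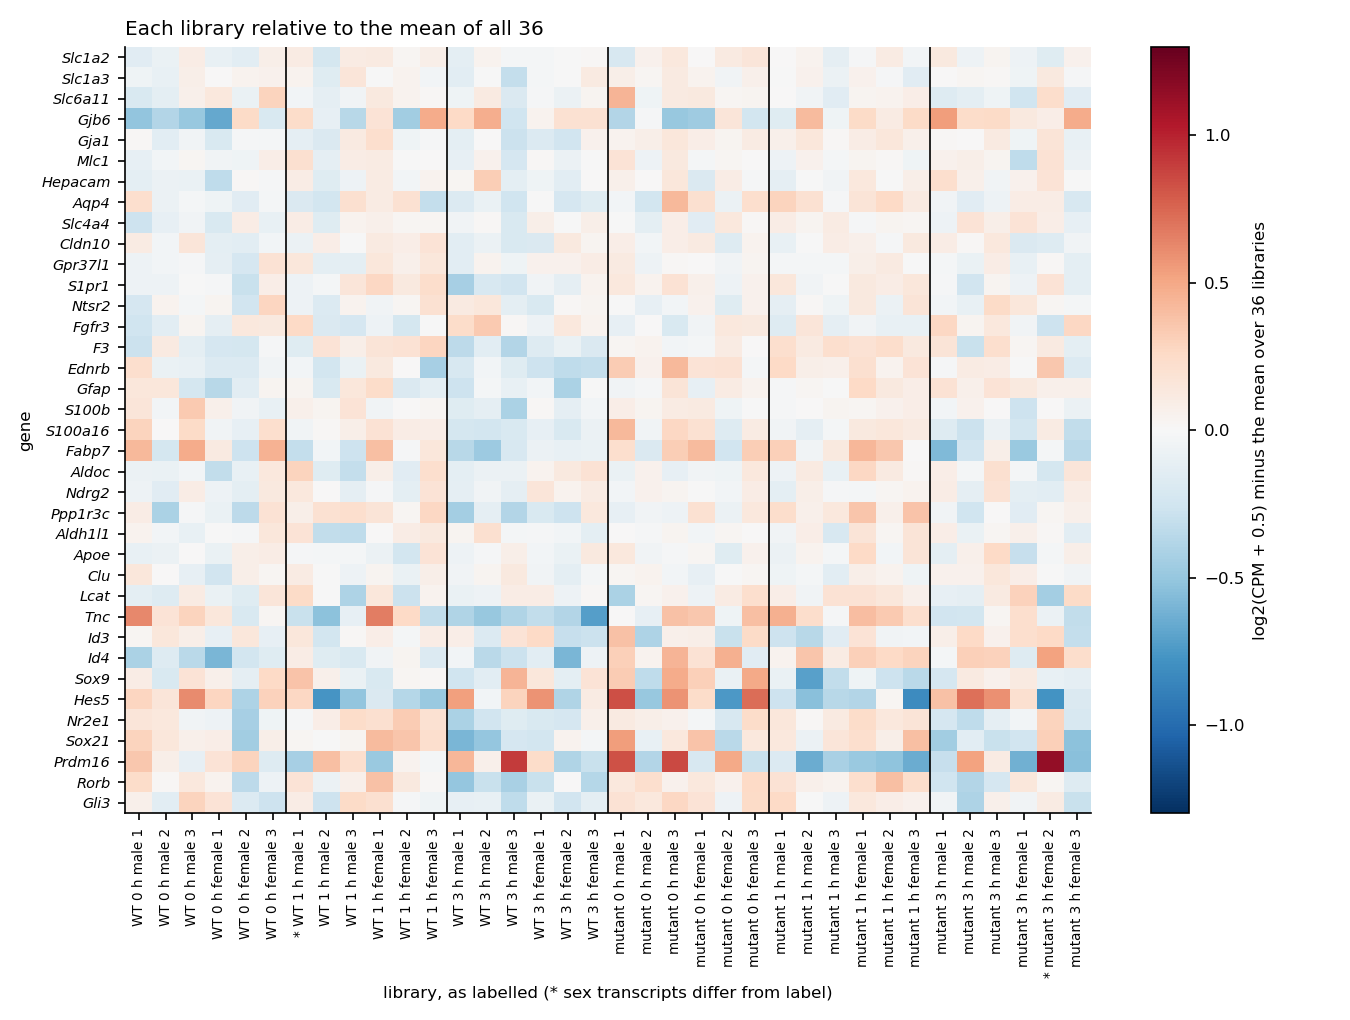
Difference of log2(CPM + 0.5) in each library from the mean of all 36, for the 37 genes ordered by role; columns are libraries as labelled, and an asterisk marks those whose sex transcripts differ from the label. Prdm16 and Hes5 have the strongest colours, and Id4 is blue in most WT and red in most mutant libraries.

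Prdm16, the most variable of the 37 genes, is given beside markers of neighbouring tissue. It reached 44.3 CPM in mutant 3 h female 2, 37.5 CPM in WT 3 h male 3, 36.3 CPM in mutant 0 h male 3 and 35.5 CPM in mutant 0 h male 1. The 8 choroid plexus markers, all detected in every library, summed to 2122, 8097, 124 and 2643 CPM in these, and over all groups from 43.6 to 8097 CPM. The 6 striatal markers summed to 49.7, 28.5, 53.2 and 70.4 CPM in the same order, and from 23.2 to 70.4 CPM over all groups. At 1 h, where Prdm16 was lower in mutants, the choroid plexus sum ran between 105 and 4582 CPM in WT mice, and between 59.4 and 1130 CPM in mutants. Its part in the Prdm16 difference was not tested. Without mutant 3 h female 2 the change of Prdm16 from 1 to 3 h in mutants was 0.31 in place of 0.69 on the log2 scale.

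The 5 ependymal markers summed to between 10.02 and 70.8 CPM over all libraries, the 5 CA1 pyramidal markers to between 592 and 1020 CPM, the 6 dentate granule cell markers to between 437 and 779 CPM and the 5 neocortical markers to between 112 and 176 CPM. The 6 microglial markers summed to group medians between 230 and 266 CPM, the 6 endothelial markers between 134 and 150 CPM and the 6 pan-neuronal markers between 5406 and 5802 CPM, and no marker in these lists was at 0 in any library. The 7 oligodendrocyte markers ranged from 4567 to 10920 CPM. Some listed genes overlap other counted genes, of which 5930403L14Rik at Prdm16 (39.0 to 83.1 CPM) and Lpin1 at Ntsr2 (25.3 to 37.4 CPM) were expressed and those at Id4, Mlc1 and Tnc stayed at or below 1.25 CPM.

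The list was set beside 44 other astrocyte genes. Of these, 31 had fold changes above 0 in naive mutants against WT, 23 at 1 h and 22 at 3 h, with medians of 0.05, 0.02 and -0.00, and none was called by edgeR. The counts were 31 at 1 h and 24 at 3 h without the mismatched libraries, with medians of 0.04 and 0.02. At an unadjusted p of 0.05, 4, 3 and 4 were higher (3.32%, 4.33% and 3.28% of all genes) and 1, 2 and 2 lower (2.83%, 4.28% and 3.09%). Without the 3 naive mutants of high striatal sum 1 was higher (2.87%) and 3 lower (3.38%) at 0 h. Without the mismatched libraries 4 and 7 were higher at 1 and 3 h (5.27% and 4.4%) and 1 and 3 lower (5.06% and 3.65%). With all libraries DESeq2 called none, where it called 0.0808%, 0.643% and 0.27% of all genes. The smallest p-values belonged to Cbs at 0 h (log2 fold change 0.26 ± 0.09), Fjx1 at 1 h (0.14 ± 0.05) and Slc14a1 at 3 h (0.23 ± 0.07). From 0 to 3 h, 8 were higher (4.57% of all genes) and 7 lower (3.66%) in WT at an unadjusted p of 0.05, and 5 higher (4.89%) and 6 lower (3.68%) in mutants. The mutant counts were 6 higher (6.13%) and 11 lower (5.11%) without the mismatched library. They were 5 higher (4.18%) and 2 lower (3.48%) without the 3 naive mutants of high striatal sum. DESeq2 called the phagocytic receptor Mertk in WT from 0 to 3 h (0.48 ± 0.14; 0.424% of all genes), and in mutants from 1 to 3 h Etnppl (0.99 ± 0.24) and the glutamate receptor Grm3 (-0.23 ± 0.05; 0.423% of all genes). Dio2, the deiodinase with which astrocytes activate thyroid hormone, was called by DESeq2 in mutants from 0 to 1 h (2.14% of all genes) and from 0 to 3 h (0.839% of all genes), and in the first of these it was the 1 gene of the list that edgeR called over time.

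Dio2 ran from 59.6 through 69.9 to 78.6 CPM in naive mutants and from 84.7 through 98.7 to 116 CPM at 1 h, without overlap. It rose by 0.50 ± 0.09 on the log2 scale (edgeR adjusted p = 0.0389). With the replicate block, which matches libraries by sex and number without a pairing in the labels, the rise was 0.49 at an edgeR adjusted p of 0.0556. In WT the medians were 70.3 and 93.5 CPM, with a log2 fold change of 0.39 ± 0.11 (edgeR adjusted p = 0.922), and the difference between genotypes was 0.11 ± 0.15. The call in mutants was lost when any 1 of 8 of the 12 libraries was left out, with adjusted p-values up to 0.113, and also with no filter (0.0527) and with all 36 libraries in 1 fit (0.0665). Without the 3 naive mutants of high striatal sum the value was 0.46 at an adjusted p of 0.197. The 8 libraries were males 1 and 3 and females 1 and 3 at 0 h, and males 1 and 2 and females 1 and 3 at 1 h.

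Of 12 neural stem cell genes none was called in any comparison by edgeR, and DESeq2 called 1 from 0 to 3 h in each genotype, the matrix gene Thbs4 (0.424% of all genes in WT and 0.839% in mutants). Over all 12 comparisons edgeR called between 0% and 0.312% of all genes and DESeq2 between 0% and 2.14%. In naive mutants 9 were above 0, and 3 were higher at an unadjusted p of 0.05 (3.32% of all genes), with Riiad1 at 0.61 ± 0.18 and the filament gene Vim at 0.27 ± 0.09 having the smallest p. Without the 3 naive mutants of high striatal sum 7 were above 0 and 1 was higher at an unadjusted p of 0.05 (2.87% of all genes), and Vim was at 0.14. At 3 h Vim stood at 0.33 ± 0.10. Of 12 reactive astrocyte genes none was called by edgeR or DESeq2. Between genotypes 6 were above 0 and 6 below at 0 h, 4 and 8 at 1 h, and 7 and 5 at 3 h. At an unadjusted p of 0.05 there were 0 at 0 h, 2 lower at 1 h (4.28% of all genes) and 3 higher at 3 h (3.28% of all genes). The 2 at 1 h were the heat shock gene Hspb1 (-0.54 ± 0.20) and the interferon-induced Gbp2 (-0.40 ± 0.17; edgeR adjusted p = 0.443 and 0.518). The 3 at 3 h were Gbp2 (0.47 ± 0.17), complement C4b (0.36 ± 0.14) and the histocompatibility gene H2-D1 (0.17 ± 0.06; edgeR adjusted p = 0.691, 0.752 and 0.763). Serpina3n, a protease inhibitor of reactive astrocytes, had 50.8, 120 and 251 CPM in WT at 3 h and 48.4, 59.4 and 215 CPM in mutants, ranges that overlapped. Its medians in WT and mutants were 83.5 and 147 CPM at 0 h, the other direction, and 113 and 83.2 CPM at 1 h.

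Letters bound by factors of glia were counted in the promoter windows on both strands. TGGGAA, the core of the site for Rbpj, the DNA-binding partner of Notch, was in 40.9% of the 44 windows and in 25.6% of all windows. ACAATG, bound by Sox factors, was in 11.4% against 12.6%, the nuclear factor I motif TTGGCA in 11.4% against 14.1%, the Stat motif TTCNNNGAA in 9.09% against 8.3% and the glucocorticoid receptor motif AGAACA in 11.4% against 19%. The cyclic AMP element TGACGTCA was found in 2.27% against 1.79%, TATAAA in 13.6% against 13.6% and GGGCGG in 45.5% against 35.7%. Several windows of 1 gene overlap, and a match says only that the letters are there. The window of Hes5, a textbook Notch target (chr4:154960673-154960972, plus strand, GRCm38.p6, RefSeq), is shown with TGGGAA in capitals on either strand, starting 226 and 82 bases before the transcription start.
Hes5: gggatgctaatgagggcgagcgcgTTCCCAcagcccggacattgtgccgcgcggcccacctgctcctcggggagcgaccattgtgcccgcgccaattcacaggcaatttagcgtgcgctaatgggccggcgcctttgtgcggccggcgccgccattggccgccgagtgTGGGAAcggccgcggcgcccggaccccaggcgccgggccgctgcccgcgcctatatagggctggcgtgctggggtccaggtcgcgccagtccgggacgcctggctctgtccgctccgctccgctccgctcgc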

How the data were processed

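The members and gene lists were chosen with earlier results of these data known. The deposited files hold raw counts of reads per gene, one file per library. The authors made them with STAR 2.7.8a and featureCounts 2.0.1 on mm10, as their processing notes state; use of strand is not given in the sources used here. Entrez IDs were named from RefSeq (25275 of 27179; the rest held 1.28% of counts), and exon lengths came from GENCODE. Genes were kept by filterByExpr (minimum count 10), scaled by TMM and tested with edgeR 4.0.16 (quasi-likelihood, robust, R 4.3.3), with sex as labelled as a covariate, on the 12 libraries of each pair of groups, 24 libraries for an interaction and 36 for sex. P-values were adjusted by Benjamini-Hochberg over all genes tested. All 37 genes passed the filter in all 12 comparisons. SE is the fold change divided by the square root of F. Scripts were tested on simulated data. The rule for named genes took the 3 markers, each gene called and the 2 genes with the smallest p in each comparison, and in the other lists genes called or else those with the smallest p; not every value of each is printed. Fabp7, Nr2e1, Gpr37l1 and the added genes were chosen after their values were seen. Alternatives were RLE factors, DESeq2 1.42.0, no sex covariate, no filter, 10 counts in every library, 1 fit of all libraries, a replicate block, sex taken from transcripts, and leaving out libraries. A further setting, without naive mutants of high striatal sum, was added after seeing the data. Labels name separate mice, and their litters were not used. Labels do not tie replicate numbers to a litter or day. In mutants from 0 to 1 h all 6 same-numbered pairs correlated (0.104 to 0.275, 5 of 6 libraries best with their own number). Each other comparison had a pair below the smallest of these, and the block was read as a pairing only in mutants from 0 to 1 h. This rule was drawn from the same correlations, so whether the mice were paired is not known. Mutants against WT at 0 h had a higher median correlation (0.251 against 0.185), with 4 of 6 libraries best with their own number.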

Additional observations from a re-analysis of the deposited data

Results flagged for a closer look

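A library was taken as far from its group of 6 when its gap to the nearest other library, as a share of the range, exceeded Dixon's critical value, which chance gives in about 1 of 20 groups, and 9 of the 222 sets of values (37 genes in 6 groups) did so. WT 1 h male 2 was low in the glutamate transporter Slc1a2, at 3037 CPM against 3616 to 3864 CPM in the other libraries of its group, and in the bicarbonate cotransporter Slc4a4, at 207 CPM against 235 to 249 CPM. The GABA transporter Slc6a11 was high in mutant 0 h male 1 (197 CPM against 139 to 158 CPM) and in mutant 3 h female 2 (170 CPM against 121 to 139 CPM). WT 0 h male 1 was high in Aqp4, at 204 CPM against 158 to 172 CPM, and in Ednrb, at 71.2 CPM against 54.1 to 59.2 CPM. Hepacam was at 141 CPM in WT 3 h male 2 against 103 to 115 CPM. Fgfr3 was at 143 CPM in mutant 1 h male 2 against 114 to 124 CPM. Sox21 was at 11.1 CPM in WT 0 h female 2 against 16.1 to 18.8 CPM.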

How the results depend on the processing

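DESeq2 called 1 listed gene between genotypes at 0 h, 1 at 1 h, 2 in WT from 0 to 3 h, 7 in WT from 1 to 3 h, 3 in mutants from 0 to 1 h, 2 from 0 to 3 h and 2 from 1 to 3 h, where edgeR called 0; the cause was not tested. Without the mismatched libraries edgeR called 1 listed gene between genotypes at 1 h and 1 in WT from 1 to 3 h. Leaving out each replicate in turn gave 0 to 1 called genes in these and in WT from 0 to 3 h, through WT 1 h male 1 in the first 2 and WT 0 h female 2 in the last, and 0 in the other comparisons. For the last, the share of all genes called is not given here. Over all 37 genes and 12 comparisons, the fold change took the other sign in at least 1 alternative in 158 of 444 cases (143 over single left-out libraries). For the genes whose value is printed or whose unadjusted p was under 0.05, 2540 values under the alternatives kept their direction and side of the threshold, 26 came to pass it, 12 lost a call (Dio2 in mutants from 0 to 1 h) and 42 changed sign. The 42 were, between genotypes at 0 h, Hes5 (-0.0148 with the replicate block, -0.0266 without the 3 naive mutants of high striatal sum, and -0.0999 to 0.2196 over single left-out libraries) and Id3 (-0.0191, -0.0646 and -0.0824 to 0.0904), without those 3 mutants Mlc1 (-0.0181), Prdm16 (-0.4342), S100a16 (-0.0144), Slc4a4 (-0.0012), Slc6a11 (-0.0158) and Tnc (0.0675), and over single left-out libraries Cldn10 (-0.0016 to 0.0635), S100a16 (-0.0210 to 0.0818) and Tnc (-0.0889 to 0.0803). The rest were Gpr37l1 between genotypes at 1 h (0.0124 without the mismatched library, 0.0024 with sex from transcripts, and -0.0535 to 0.0124 over single left-out libraries) and, over single left-out libraries, Aldh1l1 at 0 h (-0.0294 to 0.022) and at 3 h (-0.0372 to 0.0222), Slc1a2 at 3 h (-0.0168 to 0.043) and Sox9 in WT from 0 to 1 h (-0.0894 to 0.0365); the cause was not tested. The median fold change of the 37 genes ran over the alternatives from 0.05 to 0.11 between genotypes at 0 h, from -0.01 to 0.04 at 1 h and from 0.04 to 0.08 at 3 h, and between 1 and 3 h from -0.11 to -0.05 in WT and from -0.08 to -0.02 in mutants. Its sign changed in 4 of 21 alternatives for the genotypes at 1 h, 5 of 20 in mutants from 0 to 1 h and 12 of 34 for the interaction at 3 h, and in none for the other comparisons.

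Over all genes, DESeq2 called 14, 111 and 47 between genotypes at 0, 1 and 3 h (edgeR 0, 0 and 2), and 8, 74, 65, 370, 145 and 73 over time (edgeR 0, 0, 0, 54, 0 and 0). Without the mismatched libraries edgeR called 41 and 18 between genotypes at 1 and 3 h, and without the 3 naive mutants of high striatal sum 3 at 0 h and 23 in mutants from 0 to 1 h. Without the mismatched library edgeR called 18 in mutants from 1 to 3 h. With a replicate block (sex and number) edgeR called 0 listed genes in each comparison, 5 and 0 genes between genotypes at 1 and 3 h, and 37 in mutants from 0 to 1 h (54 without it); Dio2 is the one call named here that it changed. Outside that comparison correlations of same-numbered libraries ran from -0.382 to 0.471. Depth was at least 253 counts for each listed gene in every library.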
